A study of Mus musculus with 2 samples.

Results

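Islet endocrine cells keep an epithelial character, and the genes described here are 10 that help to set or carry it: the transcription factor genes Ovol2, Ehf, Grhl2 and Klf4, the splicing regulator genes Esrp1 and Esrp2, and the keratin genes Krt7, Krt8, Krt18 and Krt19. They were taken by symbol from the 31054 features of 2 single-cell libraries, and all 10 were found in both. Each was read in 4 groups of cells, named insulin, Gcg, Sst and Ppy cells after the hormone gene (Ins1 with Ins2, Gcg, Sst or Ppy) that took the highest share of a cell's UMIs. A UMI is a molecular barcode that counts a captured transcript once.

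The libraries came from pancreatic islets of male C57Bl6 mice at 12 weeks of age. In Tg7 mice a transgene drives excess miR-7a2, a microRNA, in the β-cells, which then lose identity while the animals become diabetic. Wild-type mice were their littermates. By the study's text the islets of both libraries were from mice that also carried a β-cell reporter, rat Ins2-Cre with a Rosa26-floxed-Stop-tdTomato allele; the labels do not name it. Each genotype had 1 library and the number of mice behind each was not given in the sources used here, so genotype and library cannot be told apart and no test between genotypes was possible. The 95% intervals given below allow for the counting of UMIs and for no other source of error.

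Ovol2 is a zinc finger repressor that holds down mesenchymal genes, Ehf an Ets family factor of epithelia, Grhl2 a grainyhead family activator of junction genes, and Klf4 a Krüppel-like factor used in epithelial differentiation. Esrp1 and Esrp2 are RNA-binding proteins that keep the epithelial exon choice in many transcripts. Keratins build intermediate filaments from pairs of a type II chain, such as Krt7 or Krt8, and a type I chain, such as Krt18 or Krt19; Krt8 with Krt18 is the usual pair of simple epithelia, while Krt7 and Krt19 are typical of ducts.

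The transgene raises miR-7a, so its mature sequence is shown first, followed by the matches to its seed in the 3′ UTRs of these genes. The mature miRNA (RefSeq, GRCm38.p6, chr7:78888295-78888317, plus strand, within Mir7-2) has its seed, bases 2 to 8, in capitals. Below it stand the Klf4 sites, with the 7 bases that pair with the whole seed in capitals. They come from the longest 3′ UTR of the gene in GENCODE M1, and Klf4 was the only one of the 10 genes with such a match.
mmu-miR-7a-5p: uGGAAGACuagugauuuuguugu
Klf4, first site: cctttcacactGTCTTCCcacgaggggagg
Klf4, second site: aatctagttttGTCTTCCgatctacattga
A match to the whole seed (GTCTTCC) was present in 11.2% of 19915 annotated 3′ UTRs, and the longer form GTCTTCCA was in none of the 10. Shorter matches of 6 bases (TCTTCC, part of the sequence above) occurred besides in Ehf, Grhl2 and Esrp2, against 39.9% of all 3′ UTRs. Ovol2, Esrp1 and the 4 keratin genes held none of these letters in the 3′ UTRs searched. Some of these were short, with 65 bases for Krt18, 103 for Krt19, 229 for Krt8 and 428 for Ovol2, against 984 for Klf4. A short 3′ UTR leaves less room for a match. Those of Esrp1 and Krt7 had 2059 and 2648 bases. A match is a description of sequence and not a measured site.

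Krt7, Krt8 and Krt18 lie on chromosome 15, at 101412403 to 101427806, 101996711 to 102004342 and 102028216 to 102032026 in GRCm38.p6, and 23873 bases separate Krt8 from Krt18.

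The Tg7 library held 29931777 UMIs in 1123 barcodes and the Wild-type library 30829078 UMIs in 855 barcodes, and no barcode was shared. A barcode was kept if it had 1000 UMIs or more and if mt- genes gave no more than 20% of these, which left 1006 in Tg7 and 755 in Wild-type, with medians of 24484.5 UMIs in Tg7 and 39681 UMIs in Wild-type. The insulin group had 727 Tg7 and 550 Wild-type cells, the Gcg group 215 Tg7 and 159 Wild-type, the Sst group 21 Tg7 and 30 Wild-type, and the Ppy group 43 Tg7 and 16 Wild-type cells. In 60 Tg7 and 45 Wild-type cells the highest hormone share was under 5%, and 44 of these in each library fell in the insulin group. The cells under 5% included 23 Tg7 and 8 Wild-type barcodes in which macrophage markers took at least 0.5% of non-hormone UMIs, and 8 Tg7 and 23 Wild-type barcodes in which endothelial but not macrophage markers did. Because 7 hormone genes took 43.1% of UMIs in Tg7 and 63.3% in Wild-type, levels are given as UMIs per 1000000 UMIs of all other genes (CPM). Scaling to all UMIs instead would multiply every Tg7 over Wild-type ratio in insulin cells by 1.69.

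In insulin cells, the epithelial regulators and keratins stood mostly lower in Tg7. Of the 9 genes with at least 20 UMIs over both libraries, 5 were at least 2-fold lower in Tg7 (Ovol2, Klf4, Esrp2, Krt8 and Krt19) and 0 at least 2-fold higher, where 7.62% of 13590 genes were at least 2-fold lower and 9.01% at least 2-fold higher. Scaled to all UMIs, 3 of the 5 stayed past that fold (Ovol2, Krt8 and Krt19), and without a single Wild-type barcode that carried nearly all Krt19 UMIs 4 of 8 counted genes were at least 2-fold lower. The median log2 ratio of the 9 genes was -1.24, against -0.04 for all genes. Grhl2 had too few UMIs to be counted. The ratio is given here as a description of these libraries, with an exact conditional binomial interval.

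**Figure D1:**
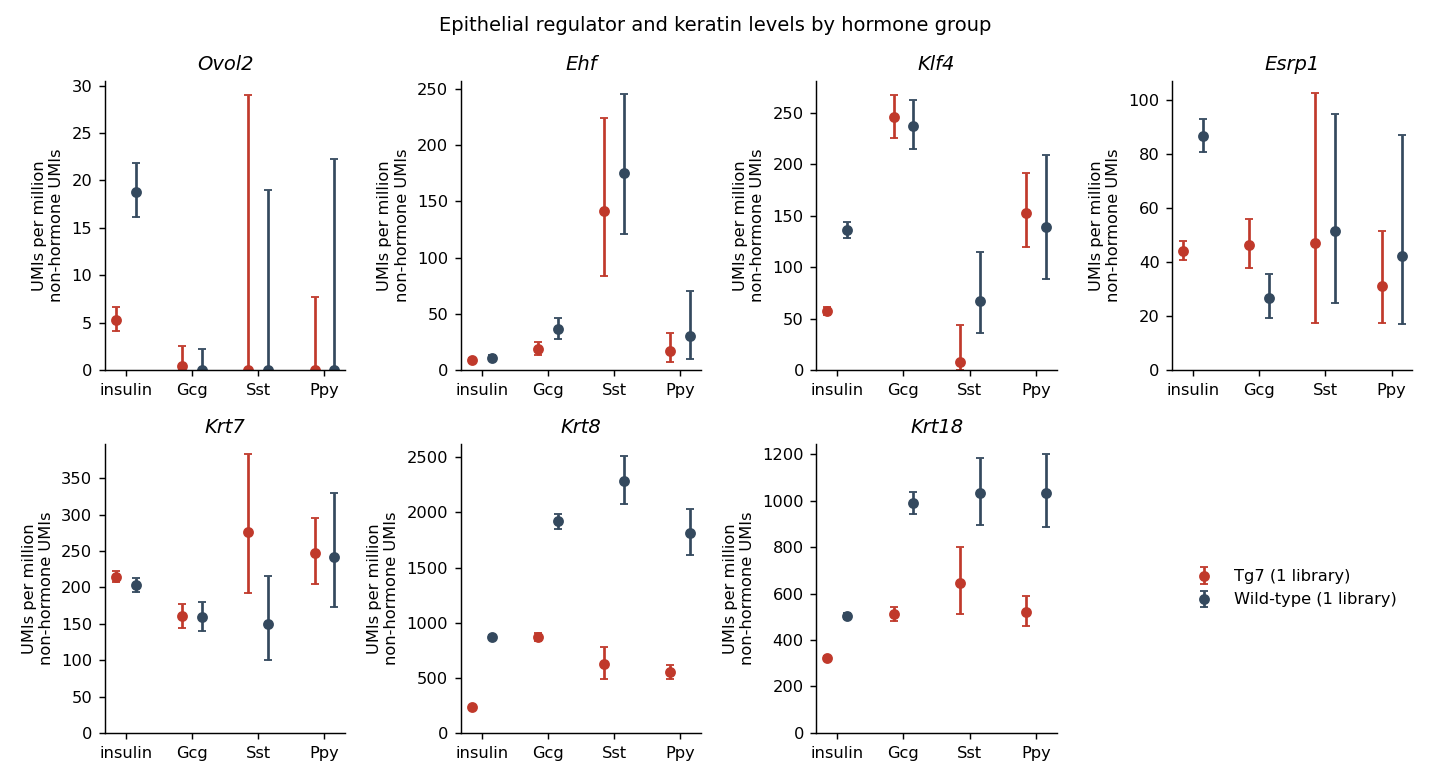
Level of 7 genes, in CPM (the axis counts UMIs against non-hormone UMIs), in insulin, Gcg, Sst and Ppy cells of the Tg7 library (red, left) and the Wild-type library (dark, right); bars are exact 95% Poisson intervals of the summed UMIs. Krt8 stood at 233 in Tg7 and 871 in Wild-type insulin cells and was lower in Tg7 in all 4 groups, while Krt7 stood at 215 in Tg7 and 203 in Wild-type insulin cells.

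Ovol2 was read almost only in insulin cells. It had 75 UMIs in 50 of 727 Tg7 insulin cells and 174 UMIs in 134 of 550 Wild-type insulin cells, or 5.32 CPM (4.18 to 6.67) in Tg7 and 18.8 CPM (16.1 to 21.9) in Wild-type. This was 3.54-fold lower in Tg7 (2.69 to 4.71), and 2.1-fold lower when scaled to all UMIs. Across the other groups there was 1 Ovol2 UMI in Tg7 Gcg cells and 0 in Wild-type Gcg cells, and 0 in the Sst and Ppy cells of both libraries. Against the limit of 3 UMIs that a count of 0 allows over the group, Wild-type insulin cells were at least 10.4-fold higher than Wild-type Gcg cells; for Sst and Ppy cells the depth was too low for a comparison. No UMI of Ovol2 was found in the macrophage-marker or endothelial-marker barcodes of either library. The limit of 3 UMIs stood there at 26.2 CPM in Tg7 and 50.4 CPM in Wild-type macrophage-marker barcodes. In endothelial-marker barcodes it was 38.3 CPM in Tg7 and 13.2 CPM in Wild-type. Only the last was below the insulin level of its library, so these counts of 0 say little.

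Ovol2 was low in Tg7 insulin cells whatever their Ins1 content. In each library, insulin cells with a hormone share of at least 5% were ordered by the Ins1 share of their insulin UMIs and divided into quartiles. The Tg7 quartiles had median Ins1 shares of 1.23%, 3.96%, 6.47% and 12.1%. Ovol2 stood at 3.89, 5.49, 5.86 and 5.97 CPM in them, with overlapping intervals. The quartiles of Wild-type insulin cells stood at 10.5, 20.7, 21.3 and 25.2 CPM, so every Tg7 quartile was below every Wild-type quartile, with overlapping intervals only for the lowest Wild-type quartile (6.50 to 16.1). Mafa, a factor of mature β-cells used here for reference, stood between 13.2 and 40.9 CPM in the Tg7 quartiles, against 458 to 571 CPM in the Wild-type quartiles.

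Klf4 was lower in Tg7 insulin cells and close between the libraries in Gcg cells. In insulin cells it had 813 Tg7 and 1259 Wild-type UMIs, or 57.6 CPM (53.8 to 61.7) in Tg7 and 136 CPM (129 to 144) in Wild-type, 2.36-fold lower in Tg7 (2.16 to 2.59). In Gcg cells it stood at 246 CPM (226 to 267) in Tg7 and 237 CPM (214 to 262) in Wild-type, a ratio of 1.04 (0.909 to 1.18). Ppy cells held 73 Tg7 and 23 Wild-type UMIs, with a ratio of 1.1 and an interval that included 1. Only 1 UMI was counted over the 21 Tg7 Sst cells, against 13 over the 30 Wild-type Sst cells.

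The order of Klf4 levels was Gcg, Ppy, insulin and then Sst cells in both libraries, with the Gcg level 4.27-fold (3.82 to 4.76) above the insulin level in Tg7 and 1.74-fold (1.55 to 1.95) in Wild-type. Ppy and insulin cells of Wild-type were not apart (ratio 1.02, 0.644 to 1.54). Part of the Klf4 UMIs of the insulin group came from cells that were not endocrine by their markers. Endothelial-marker barcodes carried 754 CPM of Klf4 in 8 Tg7 barcodes and 1269 CPM in 23 Wild-type barcodes, and macrophage-marker barcodes 314 CPM in 23 Tg7 barcodes and 67.2 CPM in 8 Wild-type barcodes. With the hormone share held at 5% or more, Klf4 was 2.01-fold lower in Tg7 insulin cells, at the edge of the 2-fold limit.

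Within the insulin group, Klf4 moved with Gcg UMIs in Tg7. Tg7 insulin cells with Gcg under 0.1% of UMIs had 40.0 CPM of Klf4 (36.3 to 44.0, 561 cells), and those with Gcg at 1% or more had 91.7 CPM (81.2 to 103, 109 cells). Wild-type insulin cells stood at 104 CPM (96.8 to 111, 492 cells) and 162 CPM (120 to 214, 12 cells) in the same classes. When only cells were used whose highest hormone share was at least 10 times the second, the Tg7 over Wild-type ratio of Klf4 in insulin cells was 0.33. Cells with more than 1 hormone can be single cells or droplets with several cells, and these were not told apart.

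Ehf was highest in Sst cells. Its level in Sst cells was 142 CPM (84.0 to 224) in Tg7 from 18 UMIs in 13 of 21 cells, and 175 CPM (121 to 245) in Wild-type from 34 UMIs in 20 of 30 cells. These levels were 15.4-fold (8.83 to 25.3) above insulin cells in Tg7 and 15.6-fold (10.3 to 23.1) above insulin cells in Wild-type. Between the libraries the Sst ratio was 0.808 (0.429 to 1.47), an interval too wide to place it above or below 1. Gcg cells had 42 Tg7 and 60 Wild-type UMIs of Ehf, 1.92-fold lower in Tg7 (1.27 to 2.92). Ppy cells had 8 in Tg7 and 5 in Wild-type, too few for a ratio.

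In insulin cells Ehf stood at 9.22 CPM (7.70 to 10.9) in Tg7 and 11.3 CPM (9.20 to 13.6) in Wild-type, and the level was higher in insulin cells that also held Sst. Tg7 insulin cells with Sst under 0.05% of UMIs had 2.76 CPM (31 UMIs, 587 cells), those with 0.05% to 1% had 15.9 CPM (23 UMIs, 43 cells), and those with 1% or more had 64.0 CPM (76 UMIs, 53 cells). The Wild-type classes stood at 4.05 CPM (33 UMIs, 475 cells), 68.7 CPM (18 UMIs, 13 cells) and 73.9 CPM (31 UMIs, 18 cells). Hhex, the homeobox factor of δ-cells, followed the same order, at 0.178, 26.2 and 95.1 CPM in Tg7 and 0.123, 76.3 and 167 CPM in Wild-type. A further 21 of the 104 Wild-type UMIs of Ehf were in a single barcode described with Krt19 below; without it, the insulin ratio was 1.02.

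**Figure D2:**
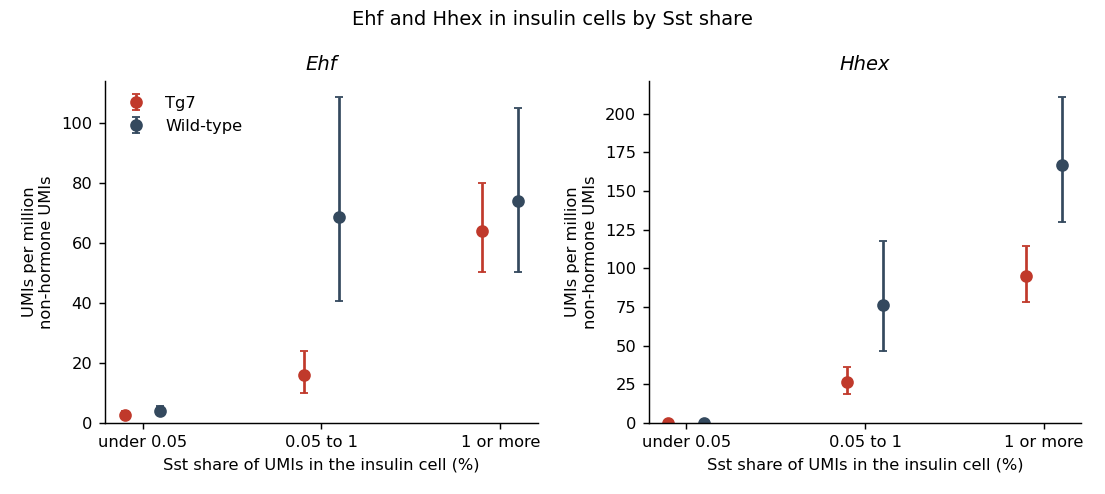
Levels of Ehf and of the δ-cell factor gene Hhex, in CPM of non-hormone UMIs, in insulin cells with a hormone share of at least 5%, split by the share of Sst in their UMIs, for Tg7 (red, left) and Wild-type (dark, right); bars are exact 95% Poisson intervals. Ehf was at 2.76 in Tg7 and 4.05 in Wild-type cells nearly free of Sst, and at 64.0 in Tg7 and 73.9 in Wild-type cells with Sst at 1% or more.

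Grhl2 was close to undetected. It had 8 UMIs in 8 Tg7 insulin cells and 4 in Wild-type insulin cells, and all 4 of the Wild-type UMIs were in the single duct-marker barcode. Outside insulin cells only 1 Grhl2 UMI was found, in a Wild-type Gcg cell. The depth does not allow a comparison for this gene.

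Esrp1 differed in direction between the endocrine groups. In insulin cells it had 624 Tg7 and 802 Wild-type UMIs, or 44.2 CPM (40.8 to 47.9) in Tg7 and 86.8 CPM (80.9 to 93.0) in Wild-type, 1.96-fold lower in Tg7 (1.77 to 2.18), just short of the 2-fold limit. Scaled to all UMIs it was 1.16-fold lower in Tg7 insulin cells. In Gcg cells it had 103 Tg7 and 44 Wild-type UMIs, or 46.2 CPM (37.7 to 56.1) in Tg7 and 26.6 CPM (19.3 to 35.7) in Wild-type, a ratio of 1.74 (1.21 to 2.54). Wild-type insulin cells stood 3.27-fold (2.41 to 4.53) above Wild-type Gcg cells, and in Tg7 the same ratio was 0.957 (0.776 to 1.19). Sst cells had 6 Tg7 and 10 Wild-type UMIs, and Ppy cells 15 Tg7 and 7 Wild-type UMIs, which did not separate the libraries.

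Its relative Esrp2 was near its detection limit, with 14 Tg7 and 24 Wild-type UMIs in insulin cells, 2.62-fold lower in Tg7 with a wide interval (1.30 to 5.47). In the other groups Esrp2 had at most 1 UMI per library. Of 8 genes whose exons the Esrp proteins are known to splice, 7 were counted in insulin cells, with 0 at least 2-fold lower and 1 at least 2-fold higher in Tg7 (Cd44, a ratio of 2.19), and a median log2 ratio of 0.15. Over all genes counted in insulin cells, 7.62% were at least 2-fold lower and 9.01% at least 2-fold higher. Gene-level UMIs do not show which exons were used, so splicing was not measured.

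**Figure D3:**
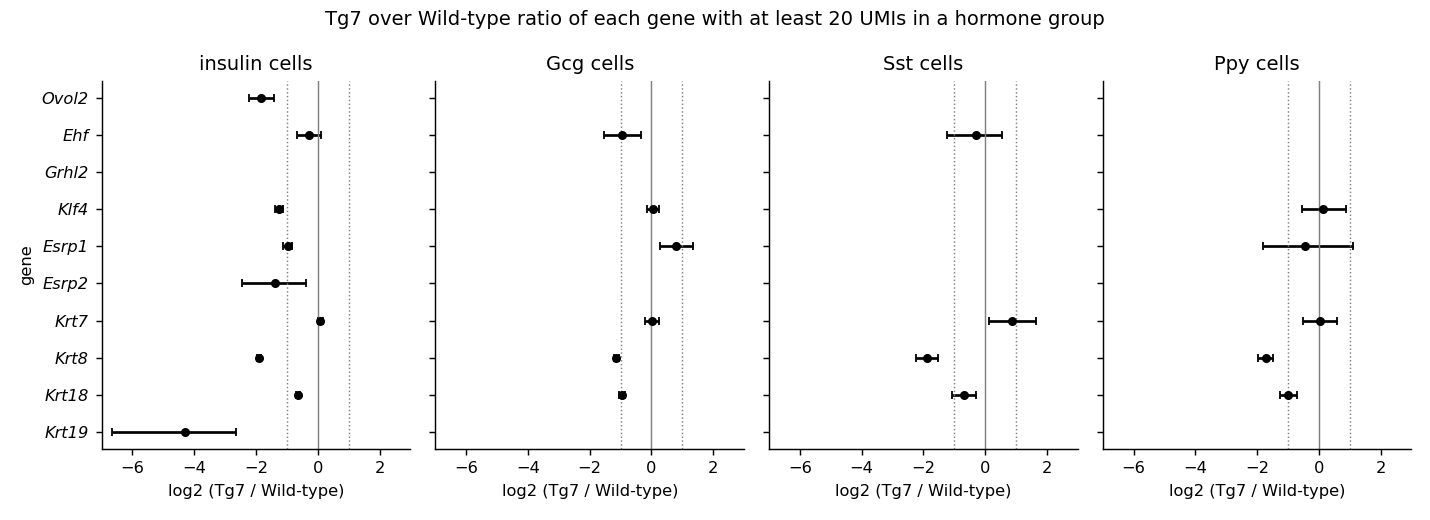
Ratio of Tg7 over Wild-type, on a log2 scale, for each of the 10 genes with at least 20 UMIs over both libraries, in insulin, Gcg, Sst and Ppy cells; bars are exact 95% conditional binomial intervals, the solid line marks equal levels and the dotted lines a 2-fold difference. Krt8 lay left of the lower dotted line in all 4 groups, while Krt7 lay close to 0 except in Sst cells, and the wide Krt19 bar in insulin cells rests on 3 Tg7 and 39 Wild-type UMIs.

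Krt8 showed the lower Tg7 level in every group. In insulin cells it had 3285 Tg7 and 8045 Wild-type UMIs, or 233 CPM (225 to 241) in Tg7 and 871 CPM (852 to 890) in Wild-type, 3.74-fold lower in Tg7 (3.59 to 3.90). Gcg cells stood at 869.9 CPM in Tg7 and 1919.6 CPM in Wild-type, 2.21-fold lower (2.08 to 2.34). Sst cells stood at 622 CPM in Tg7 and 2286 CPM in Wild-type, 3.68-fold lower in Tg7 (2.89 to 4.73). Ppy cells stood at 549 CPM in Tg7 and 1814 CPM in Wild-type, 3.30-fold lower in Tg7 (2.79 to 3.91). The lower level was thus found also in groups whose main hormone is not insulin. Krt8 was the only one of these genes at least 2-fold lower in Gcg cells (1 of 6 counted, with 3.11% of 9988 genes at least 2-fold lower and 3.91% higher), in Sst cells (1 of 4, with 5.12% of 3066 genes lower and 3.56% higher) and in Ppy cells (1 of 5, with 3.19% of 5013 genes lower and 8.4% higher).

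The lower Krt8 level was also seen across single insulin cells. Among cells with a hormone share of at least 5%, the median was 196 CPM in 683 Tg7 cells and 766 CPM in 506 Wild-type cells, with 10th to 90th percentiles of 0 to 504 CPM in Tg7 and 263 to 1746 CPM in Wild-type. Only 20 Tg7 cells (2.93%) lay above the Wild-type median. Since cells differed in depth, each was thinned to 2000 non-hormone UMIs, which left out 20 Tg7 cells and 6 Wild-type cells; 32.7% (29.2 to 36.3) of 707 Tg7 insulin cells and 67.5% (63.3 to 71.4) of 544 Wild-type insulin cells then had a Krt8 UMI, against 82.4% in Tg7 and 91.5% in Wild-type unthinned. After the same thinning 0 of 23 macrophage-marker barcodes in Tg7 (median of 4709 UMIs) and 0 of 8 in Wild-type (7491.5 UMIs) had one, which allows shares of up to 13.0% in Tg7 and 37.5% in Wild-type, with insulin cells at medians of 29664 UMIs in Tg7 and 47806 UMIs in Wild-type.

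Within Tg7 insulin cells, Krt8 differed little with the Ins1 share and was higher where Gcg was present. Over the quartiles of Ins1 share, Tg7 cells stood at 240, 235, 225 and 250 CPM, and Wild-type cells at 1075, 749, 844 and 888 CPM. Tg7 insulin cells with Gcg at 1% or more had 291 CPM (272 to 311), and those with Gcg under 0.1% had 219 CPM (210 to 228). The same Wild-type classes had 1134 CPM (1017 to 1260) and 871 CPM (851 to 891). By Sst, Tg7 insulin cells had 363 CPM (329 to 399) at 1% or more, 235 CPM at 0.05% to 1% and 223 CPM (215 to 232) under 0.05%. Wild-type insulin cells had 1341 CPM (1233 to 1457), 523 CPM and 868 CPM (848 to 889) in these classes. In Gcg cells of Tg7, insulin UMIs went with a lower level. The 184 Tg7 Gcg cells with insulin under 0.5% of UMIs had 1023 CPM of Krt8 (975 to 1073) and the 24 with more had 457 CPM (402 to 518), against 1919 CPM (1851 to 1988) in the 153 such Wild-type Gcg cells with little insulin and 1935 CPM (1624 to 2287) in the 6 with more. With only cells whose highest hormone share was at least 10 times the second, the Tg7 over Wild-type ratio in Gcg cells was 0.519, short of the 2-fold limit.

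Krt18, the type I partner, was lower by less. Insulin cells had 4558 Tg7 and 4651 Wild-type UMIs, or 323 CPM (314 to 333) in Tg7 and 503 CPM (489 to 518) in Wild-type, 1.56-fold lower in Tg7 (1.5 to 1.62). Scaled to all UMIs the insulin ratio was 1.08, so its direction depends on the scaling, and that of Krt8 does not. In Gcg cells Krt18 stood at 510 CPM in Tg7 and 989 CPM in Wild-type, 1.94-fold lower in Tg7 (1.80 to 2.09). Sst cells had 645 CPM in Tg7 and 1032 CPM in Wild-type, and Ppy cells 522 CPM in Tg7 and 1034 CPM in Wild-type, 1.98-fold lower in Tg7 (1.62 to 2.41). In each library insulin cells had the lowest Krt18 level, and among Gcg, Sst and Ppy cells of Wild-type the intervals of the ratios all included 1.

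Krt7, a type II chain like Krt8, stood at nearly equal CPM in the libraries in insulin, Gcg and Ppy cells. Insulin cells had 3026 Tg7 and 1874 Wild-type UMIs, or 215 CPM (207 to 222) in Tg7 and 203 CPM (194 to 212) in Wild-type, a ratio of 1.06 (0.998 to 1.12). Scaled to all UMIs the insulin ratio was 1.78, so the near equality there depends on the scaling. Gcg cells stood at 160 CPM in Tg7 and 159 CPM in Wild-type, and Ppy cells at 247 CPM in Tg7 and 242 CPM in Wild-type. In Sst cells the ratio was 1.84 (1.09 to 3.12), from 35 Tg7 and 29 Wild-type UMIs. By single cells, 50.2% of Tg7 insulin cells lay above the Wild-type median of Krt7, against 2.93% for Krt8 and 26.6% for Krt18.

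**Figure D4:**
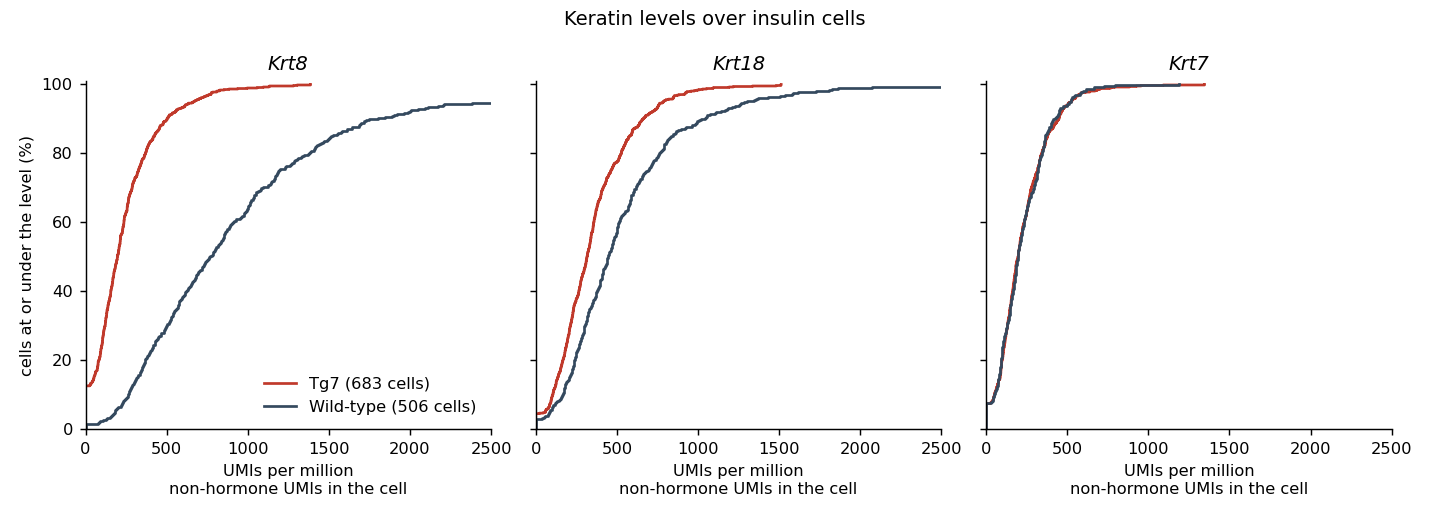
Cumulative share of insulin cells (hormone share at least 5%) at or under a given level of Krt8, Krt18 and Krt7, in CPM of the non-hormone UMIs of the cell, for 683 Tg7 cells (red) and 506 Wild-type cells (dark); some Wild-type cells lie beyond the axis. The Krt8 curves are far apart, with medians of 196 in Tg7 and 766 in Wild-type, the Krt18 curves less so, and the Krt7 curves lie on each other.

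The balance among the keratins therefore differed between the libraries, by a measure that no scaling changes because it is taken within the same cells. Insulin cells with a hormone share of at least 5% had 0.72 Krt8 UMIs per Krt18 UMI in Tg7 (0.689 to 0.754) and 1.74 in Wild-type (1.68 to 1.81). Sst cells had 1.06 in Tg7 and 2.21 in Wild-type, and Ppy cells 1.07 in Tg7 and 1.78 in Wild-type. Gcg cells were closer, with 1.70 in Tg7 (1.58 to 1.84) and 1.94 in Wild-type (1.83 to 2.06). This ratio counts captured transcripts, so its change between libraries can be read, and its level is not a molar ratio of chains.

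Krt7 made up a larger part of the type II UMIs in Tg7. Its share of Krt7 and Krt8 UMIs was 47.9% in Tg7 (46.7 to 49.2) and 19.4% in Wild-type (18.6 to 20.2) insulin cells, and 15.6% in Tg7 and 7.64% in Wild-type Gcg cells. Among insulin cells with at least 5 keratin UMIs, 160 of 618 Tg7 cells (25.9%) and 363 of 496 Wild-type cells (73.2%) had more Krt8 than Krt18 UMIs. More Krt7 than Krt8 UMIs were found in 268 of the Tg7 cells (43.4%) and 38 of the Wild-type cells (7.66%). At equal depth, Krt18 was read in 50.6% of Tg7 insulin cells with a Krt8 UMI and 42.9% of those without. In Wild-type these shares were 65.1% and 41.8%. They were taken over all thinned insulin cells (707 in Tg7, 544 in Wild-type), also those with a hormone share under 5%. Macrophage-marker and endothelial-marker barcodes, which lie among cells under 5%, had almost no Krt8 or Krt18 UMIs. Their part in these shares was not tested.

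**Figure D5:**
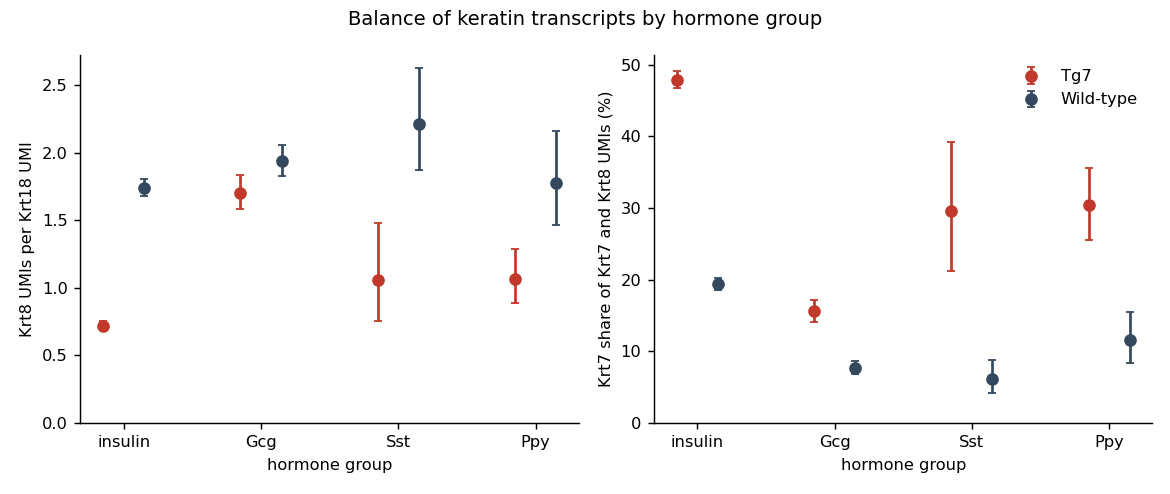
Krt8 UMIs per Krt18 UMI (left panel) and the share of Krt7 in the UMIs of Krt7 and Krt8 (right panel, percent) in 4 hormone groups of cells with a hormone share of at least 5%, for Tg7 (red, left) and Wild-type (dark, right); bars are exact 95% binomial intervals. In insulin cells the first measure was 0.72 in Tg7 and 1.74 in Wild-type and the second 47.9% in Tg7 and 19.4% in Wild-type.

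Krt19 was nearly absent from endocrine cells of both libraries. Insulin cells had 3 Tg7 and 39 Wild-type UMIs, a ratio 19.8-fold lower in Tg7, and 35 of the 39 were in 1 Wild-type barcode. That barcode held 67869 UMIs with a highest hormone share of 0.19%, along with 69 of the 76 Sox9 UMIs, 1216 of the 1687 Spp1 UMIs and all 5 Cftr UMIs of the Wild-type insulin group, all markers of duct cells. It also had 243 Krt8, 171 Krt18 and 4 Krt7 UMIs. Without it Krt19 had 3 Tg7 and 4 Wild-type UMIs, a ratio of 0.488, and fell below the count needed to be compared. The Krt19 difference in insulin cells was thus carried by a single barcode.

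Other cell types were checked against the keratin values in insulin cells with a hormone share of at least 5%. Of 8 duct markers, 7 were read in Tg7 and 6 in Wild-type, with summed levels of 518 CPM in Tg7 and 95.4 CPM in Wild-type. Spp1, also read in Gcg cells, made up 425 CPM of this in Tg7 and 34.9 CPM in Wild-type. The defining duct markers were near 0, with 20 Tg7 and 7 Wild-type UMIs of Sox9 and 0 Cftr UMIs in either. In Tg7 the summed levels were 2.16 CPM for 5 endothelial, 2.81 CPM for 5 macrophage and 4.83 CPM for 6 acinar markers, and in Wild-type they were 3.62, 8.27 and 6.91 CPM. Their part in the keratin levels was not tested. Among β-cell markers, Mafa and Ucn3 were lower in Tg7, with Mafa at 21.9 CPM in Tg7 and 526 CPM in Wild-type and Ucn3 at 61.5 CPM in Tg7 and 696 CPM in Wild-type. The other β-cell markers are not described here.

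Of 23 other epithelial regulators, 13 were counted in insulin cells, with 1 at least 2-fold lower and 0 at least 2-fold higher, and a median log2 ratio of -0.07. For this list and the keratins below, the shares over all 13590 genes counted in insulin cells were 7.62% lower and 9.01% higher. Klf6 stood at a ratio of 1.05, the endoderm factor Foxa2 at 0.723, the splicing factor Rbm47 at 0.868 and Klf10 at 1.56. Of 45 other keratin genes, 6 were counted, with 1 lower and 2 higher, and 27 had no UMI in the insulin cells of either library. Among them Krt10 stood at 0.889, Krt222 at 2.92, Krt1 at 1.41 and Krt90 at 3.27, all from far fewer UMIs than Krt8.

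Of 26 genes for other intermediate filament proteins and for the linkers that tie filaments to junctions, 23 were counted, with 5 at least 2-fold lower and 2 at least 2-fold higher. Over all genes counted in insulin cells the shares were 7.62% lower and 9.01% higher. Lmna, the gene of nuclear lamins A and C, was 2.77-fold lower in Tg7, with 1605 Tg7 and 2911 Wild-type UMIs. The linker gene Dst stood at a ratio of 0.889, the plakophilin gene Pkp4 at 0.757 and Ina, for a neuronal filament, at 1.23. Of the 7 genes past the limit, Nes, Des and Gfap had at most 1 UMI in any library once the hormone share was held at 5% or more.

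Of 15 epithelial genes that such factors are known to act on, 14 were counted, with 3 at least 2-fold lower and 0 at least 2-fold higher and a median log2 ratio of -0.51. Those with most UMIs were the protease inhibitor gene Spint2 (ratio 0.951), the adhesion genes Epcam (1.09) and Cdh1 (0.825) and the tight junction gene Cldn7 (0.574). Of 9 factors and targets of epithelial-to-mesenchymal transition, 6 were counted, with 1 lower (Snai1) and 1 higher (Cd44). For both lists, the shares over all genes counted in insulin cells were 7.62% lower and 9.01% higher. The repressor gene Snai1 stood at a ratio of 0.343 from 11 Tg7 and 21 Wild-type UMIs, and at 1.02 from 8 Tg7 and 5 Wild-type UMIs once the hormone share was at least 5%. Zeb2 stood at 0.655, lower in Tg7, from 74 UMIs in Tg7 and 74 UMIs in Wild-type. In cells with a hormone share of at least 5% its direction turned, with a ratio of 4.14 from 13 Tg7 and 2 Wild-type UMIs. That is below the count needed for a gene to be compared. Most Zeb2 UMIs of the insulin group thus lay in cells with little hormone RNA. Cdh2, for N-cadherin, stood at 1.58 and Cd44 at 2.19, while the repressor genes Zeb1 and Snai2 stood at 0.974 and 0.882 with intervals that included 1. The list medians are on the log2 scale, and scaling to all UMIs adds 0.75 to each.

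The genes whose pattern over the 8 sums of library and hormone group was most like that of Klf4 and Krt8 were found by Pearson's r of log2(CPM + 10) over 9862 genes. For Klf4 these were Wnk4 (0.969), Fam20a, Tbc1d17, Flvcr1 and Otud1 (0.948). For Krt8 they were Srsf5 (0.986), Nudc, Ddx5, Dstn and Lmna (0.972). Krt18 had an r of 0.94 with Krt8 and Krt7 one of -0.50. These values describe 8 points that share libraries and depth, and carry no test.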

How the data were processed

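Single-cell RNA-seq was performed on islets of 12-week-old male Tg7 and Wild-type mice (1 library each, 10x Genomics). The deposited values are counts: per the labels and the study's methods, the authors demultiplexed with bcl2fastq 2.17.1.14 and aligned and counted UMIs with Cell Ranger 3.0.2, which uses STAR, against mm10. The annotation release was not given in the sources used here. Cell Ranger counts reads that map to a single gene, and reads shared with keratin pseudogenes were not examined. No cell annotation was used.

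Barcodes under 1000 UMIs or over 20% mt- UMIs were dropped (117 in Tg7, 100 in Wild-type), and the others were grouped by their highest hormone share. In 3 Tg7 barcodes the highest shares were tied and the barcode went to the earlier group in the order insulin, Gcg, Sst, Ppy. Counts were summed per library and group and divided by UMIs outside 7 hormone genes (Ins1, Ins2, Iapp, Gcg, Sst, Ppy, Pyy). Genes with at least 20 UMIs over both libraries were compared, and a 2-fold difference was counted. Levels have exact Poisson, shares exact Clopper-Pearson and ratios exact conditional binomial intervals (95%), and the interval code was tested on simulated data. For shares, cells were thinned once to 2000 non-hormone UMIs. A count of 0 was given a limit of 3 UMIs over the group. Scrublet, run with an expected rate of 0.8% per 1000 barcodes, called 14 Tg7 and 11 Wild-type barcodes, which stayed in.

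All 10 genes were reported in every group. Of each other list the 4 genes with most UMIs in insulin cells were named, and the 5 genes most like the regulator and the keratin gene with most UMIs. Sox9, Spp1, Cftr, Mafa, Ucn3 and Hhex are cell type markers, and Nes, Des and Gfap were named after their values were seen. The genes and lists were chosen with earlier results of these data known. Alternatives were scaling to all UMIs, edgeR 4.0.16 TMM factors or median-of-ratios factors, other minimum counts, barcode filters, called doublets left out, cells with 1 dominant hormone, a hormone share of at least 5%, cells with non-endocrine markers left out, means over cells, a fold of 1.5 and a thinning depth of 5000. Splits by Sst, Gcg and insulin content, the removal of the barcode with most Krt19 and the restriction to insulin cells with Sst under 0.05% were chosen after seeing the data. Positions came from RefSeq (GRCm38.p6, the mm10 primary assembly) and 3′ UTRs from GENCODE M1, used for sequence only. A promoter motif search is not reported here. Python 3.11.15, numpy 2.4.6, pandas 2.3.3, scipy 1.17.1, scanpy 1.11.5 and R 4.3.3 were used.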

Additional observations from a re-analysis of the deposited data

Results flagged for a closer look

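Esrp1 moved in opposite directions in the endocrine groups with most cells. Its Tg7 over Wild-type ratio was 1.74 in Gcg cells and 0.51 in insulin cells, each with a counting interval on its own side of 1. Scaled to all UMIs the ratios were 1.61 in Gcg cells and 0.859 in insulin cells. With 1 library per genotype the difference between the groups was not tested.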

How the results depend on the processing

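Each genotype had 1 library, so no value below has a replicate check. No paired analysis was possible because the labels give no shared replicate numbers and each group has 1 library. Of 84 recomputed counts, medians and shares, 62 stayed close to the reported value and 22 moved. The 5 genes at least 2-fold lower in insulin cells became 3 with scaling to all UMIs and 3 with a minimum of 100 UMIs. In Gcg cells the 1 gene became 3 with all UMIs, 3 at a fold of 1.5 and 0 in cells whose highest hormone share was at least 10 times the second. In Sst cells it became 2 without a minimum count, 2 in those single-hormone cells and 2 at a fold of 1.5, and in Ppy cells 2 at a fold of 1.5. The median log2 ratio of -1.24 became -0.49 with all UMIs, -1.11 without a minimum count, -0.97 with a minimum of 100 UMIs, -1.01 with a hormone share of at least 5%, -1.01 without cells with non-endocrine markers, -1.11 without the barcode with most Krt19 and -1.01 as a mean over cells. The share of cells with a Krt8 UMI was 63.2% in Tg7 and 87.2% in Wild-type when thinned to 5000 UMIs, 82.4% in Tg7 and 91.5% in Wild-type unthinned, and in Wild-type 72.9% with a hormone share of at least 5% and 74.4% without cells with non-endocrine markers. Of 258 single-gene ratios, 231 stayed close, 25 moved and 2, among those whose reported interval excluded 1, turned direction, both in insulin cells: Krt18 to 1.08 with all UMIs and Krt19 to 1.04 as a mean over cells. Ehf in insulin cells, whose interval included 1 at a ratio of 0.819, stood at 1.38 with all UMIs, 1.02 without the barcode with most Krt19 and 0.421 in cells with Sst under 0.05%. The cells with Sst under 0.05% still included that barcode, which held 21 of the 104 Wild-type Ehf UMIs. Those that also had a hormone share of at least 5% stood at 2.76 CPM of Ehf in Tg7 and 4.05 CPM in Wild-type. Sst and Ppy cells numbered 16 to 43 per library, which limits Ovol2, Grhl2, Esrp2 and Krt19 there. Causes of these changes were not tested.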
